A study of Mus musculus with 6 samples.

Results

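The 10 genes described here encode proteins that build, cross-link or regulate actin filaments in podocytes: Synpo, Actn4, Tpm1, Myh9, Myo1e, Arhgap24, Inf2, Fhl2, Nebl and Clic5. They were taken by name from the gene list of the deposited matrices and were 10 of 31053 genes there. Their unique molecular identifiers (UMIs, each standing for 1 captured RNA molecule) were summed over all nuclei of a cell class in a library and given as CPM, counts scaled to a fixed total of UMIs of that class. The study used single-nucleus RNA sequencing with 10x Chromium on kidney cortex of FVB/N mice. The knockout group was 3 libraries from mice of genotype Podocin-Cre Klf4 fl/fl, and the control group was 3 libraries from mice of genotype Klf4 fl/fl. Both groups therefore carried the floxed Klf4 gene, which encodes a zinc-finger transcription factor, and the Podocin promoter confines the Cre recombinase to podocytes. The sources used here give no age, sex, treatment or pooling of mice, and no label says that libraries of a group came from separate animals, so the p-values measure the spread between these libraries.

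Podocytes cover the outside of the glomerular capillaries with interlocking foot processes, whose shape is held by bundles of actin filaments anchored at the basement membrane and at the slit diaphragm. Contractile bundles hold alpha-actinin, non-muscle myosin II, tropomyosin and synaptopodin, and injured podocytes are known to lose their foot processes while their actin network is rearranged. Human variants of ACTN4, INF2, MYO1E and ARHGAP24 are known causes of focal segmental glomerulosclerosis. Mesangial cells, which sit between the same capillaries, and the muscle cells of arterioles are contractile too.

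The knockout libraries numbered 1, 2 and 3 held 22080, 5089 and 6079 barcodes, against 21957, 3919 and 5318 in the control libraries. Total UMIs were 9356394 to 52478581 in knockout libraries and 8270961 to 62016616 in control libraries. The library numbered 1 of each group stood apart. It had the most barcodes, and its median mitochondrial share was 1.02% in the knockout and 2.5% in the control, against 0.0851% to 0.162% in the other 4 libraries. Pairs of libraries shared 0.0983% to 1.39% of the barcodes of the smaller one, and 2 knockout and 3 control podocyte nuclei carried such a barcode. Nuclei were clustered without the 10 genes and without the other actin genes described below, and classes were named by markers. The podocyte class was 1 cluster of 324 knockout and 218 control nuclei with 383770 and 366171 UMIs. All 16 podocyte markers were higher there than in the rest, including Nphs1 (nephrin) at 231-fold and Wt1 at 164-fold. The mesangial and mural class had 89 knockout and 70 control nuclei and was led by Ren1 and Myh11, markers of juxtaglomerular and smooth muscle cells. Klf4 itself had 3, 0 and 1 UMIs in knockout podocytes and 0 in each control library, where 3 UMIs over the group would be 8.19 CPM, so a loss of Klf4 was not detectable at this depth.

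In podocytes, Tpm1, the gene of a tropomyosin that winds along the actin filament and sets which proteins can bind it, rose 2.80-fold in the knockout. Myh9 and Inf2 were also higher in every knockout library than in any control library, but did not pass the test over all genes. Synpo and Nebl had lower means in the knockout, and Arhgap24 had nearly the same mean in both groups. Of the 10 genes, 9 passed the filter on low counts, 1 rose and 0 fell in edgeR's quasi-likelihood test with Benjamini-Hochberg adjustment. Among all 1419 genes tested in podocytes, 32 (2.26%) were called, 22 of them higher (1.55%) and 10 lower (0.705%). Without the scaling factor between libraries the split was 15 higher and 11 lower. The count of called genes moved with single libraries: it was 95 without knockout library 1, 5 without knockout library 2, 2 without knockout library 3, 8 without control library 1, 0 without control library 2 and 6 without control library 3. No label pairs the libraries. In podocytes the deviations of same-numbered libraries correlated at 0.52, 0.10 and 0.23, and the same-numbered library was the best match for 2 of 3. From these correlations, same-numbered libraries were taken as pairs in podocytes. On that assumption, a fit with the replicate number as a block called 103 genes, of which 3 were among the 10: Tpm1, Myh9 and Myo1e.

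**Figure D1:**
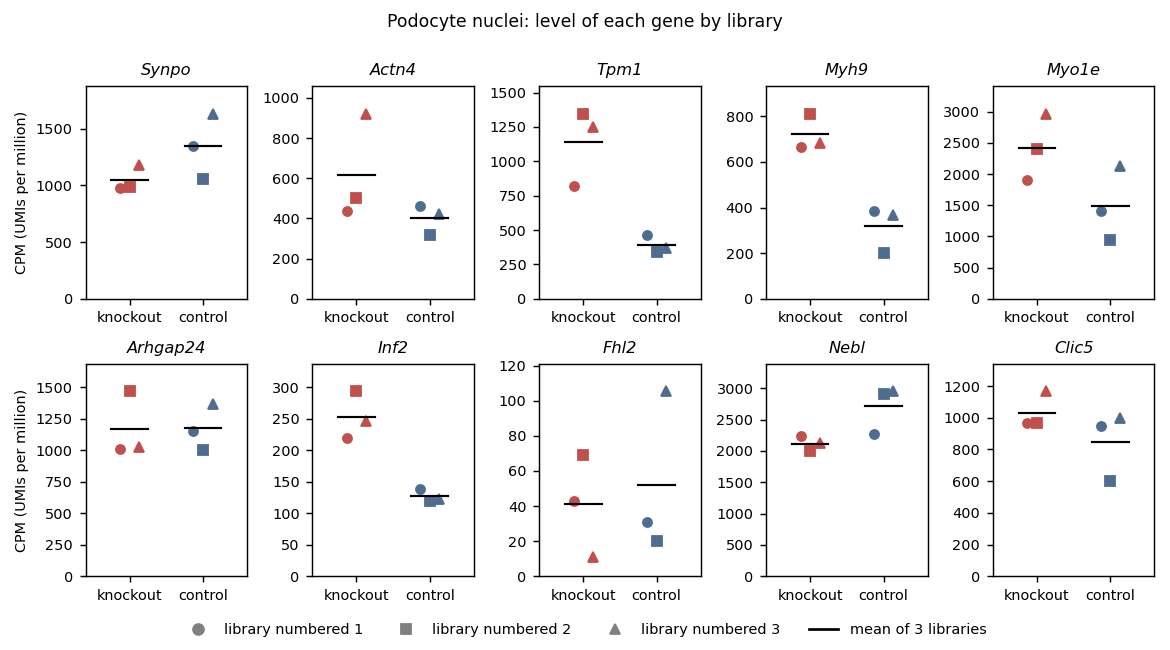
Level of each of the 10 genes in podocyte nuclei (y axis, CPM, starting at 0), with 1 symbol per library, knockout left of control, and a bar at the mean of 3 libraries. The knockout symbols lie above all control symbols for Tpm1 (822 to 1345 against 339 to 463 CPM), Myh9 and Inf2, and below all of them for Nebl; the groups overlap for the other 6 genes.

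Tpm1 (ENSMUSG00000032366, chromosome 9, 67022590 to 67049406 of mm10, minus strand) stood at 822, 1345 and 1252 CPM in knockout podocytes 1, 2 and 3, against 463, 339 and 368 CPM in control podocytes. The groups did not overlap, as for 20.7% of all genes tested (9.16% with the knockout above). These levels came from 191, 78 and 117 UMIs in the knockout and 120, 17 and 21 UMIs in the control. Tpm1 had a log2 change of 1.48 ± 0.26 (SE, n = 3 libraries each; adjusted p = 0.0201, edgeR). The direction of Tpm1 was the same in all 16 alternative fits, with log2 changes of 1.36 to 2.09. The call of Tpm1 was lost without knockout library 2 (adjusted p = 0.169), knockout library 3 (0.113), control library 2 (0.112) or control library 3 (0.136), and when a podocyte cluster with proximal tubule markers was taken in (0.0833). Without both libraries numbered 1, Tpm1 had a log2 change of 1.91 and an adjusted p of 2.62e-06, and with the replicate block 1.42 and 0.000379 (edgeR).

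Myh9 (ENSMUSG00000022443, chromosome 15, 77760587 to 77842175, minus strand) encodes the heavy chain of non-muscle myosin IIA, the motor that pulls on actin bundles. It stood at 667, 810.3 and 685 CPM in knockout podocytes, against 386, 199.6 and 368 CPM in control podocytes, so the groups did not overlap. The log2 change of Myh9 was 1.11 ± 0.28 (SE, n = 3 each), and its adjusted p of 0.0847 in edgeR missed the threshold of 0.05. With the replicate block Myh9 had a log2 change of 1.12 and an adjusted p of 0.00761, and DESeq2 gave it an adjusted p of 0.0487. Myo1e (ENSMUSG00000032220, chromosome 9, 70207350 to 70399766, plus strand) encodes a single-headed myosin that links actin to membranes. Its levels were 1911, 2396 and 2963 CPM in knockout podocytes and 1409, 938 and 2123 CPM in control podocytes. Control library 3 lay above knockout library 1, so the groups overlapped. Myo1e had a log2 change of 0.71 ± 0.30 (SE, n = 3 each; adjusted p = 0.303 in edgeR, and 0.0280 with the replicate block).

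The promoters of Tpm1 and Myh9 are shown because these genes had the smallest p-values of the 10 in podocytes. Each window is the 250 bases before the start of the RefSeq gene on build GRCm38.p6, read on the gene's own strand, chr9:67049214-67049463 (minus strand) for Tpm1 and chr15:77842176-77842425 (minus strand) for Myh9. Capitals mark matches on either strand to CACCC, a motif bound by Krüppel-like factors (GGGTG on the other strand), or to CATTCC, bound by TEAD factors (GGAATG on the other strand). The CArG box of serum response factor was searched too, as CCWWWWWWGG with W for A or T, and neither window holds an exact match. Other sequences that these factors may bind were not searched. The RefSeq start of Tpm1 used here lies inside the gene interval given above.
Tpm1: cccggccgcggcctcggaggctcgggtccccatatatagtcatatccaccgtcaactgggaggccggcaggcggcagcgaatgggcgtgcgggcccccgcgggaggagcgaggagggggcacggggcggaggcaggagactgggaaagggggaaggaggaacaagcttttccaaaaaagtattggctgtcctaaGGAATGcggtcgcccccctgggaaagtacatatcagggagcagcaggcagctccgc
Myh9: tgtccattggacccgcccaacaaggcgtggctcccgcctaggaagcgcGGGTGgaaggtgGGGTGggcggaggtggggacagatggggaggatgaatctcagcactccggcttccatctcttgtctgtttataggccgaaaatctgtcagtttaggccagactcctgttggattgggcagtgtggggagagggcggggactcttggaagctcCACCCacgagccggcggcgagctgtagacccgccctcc
The Tpm1 window held 1 match to CATTCC and none to CACCC, and the Myh9 window held 3 matches to CACCC and none to CATTCC. Of 32851 such windows of all genes, 52.0% held CACCC, 12.6% held CATTCC and 1.47% held a CArG box. Windows were found for 8 of the 10 genes, and a CArG box was in windows of Myo1e, Fhl2 and Nebl. A match describes letters and does not show binding.

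Actn4 and Synpo encode partners that bundle filaments. Actn4 (ENSMUSG00000054808, chromosome 7, 28893248 to 28962340, minus strand), alpha-actinin-4, had 435, 500.0 and 920.0 CPM in knockout podocytes and 459, 319 and 421 CPM in control podocytes. Knockout library 3 was the highest and the groups overlapped, with a log2 change of 0.57 ± 0.31 (SE, n = 3 each; adjusted p = 0.410, edgeR). A sense-intronic RNA gene lies inside Actn4 on its strand and Capn12 overlaps its end on the other strand, and the sources used here do not say how reads there were assigned. Synpo (ENSMUSG00000043079), synaptopodin, which binds alpha-actinin and stabilises RhoA in podocytes, had 982, 983 and 1177 CPM in knockout podocytes and 1347, 1058 and 1632 CPM in control podocytes. Knockout library 3 lay above control library 2, so the groups overlapped. The log2 change of Synpo was -0.34 ± 0.25 (SE, n = 3 each; adjusted p = 0.551, edgeR), and it became 0.57 when the podocyte cluster with proximal tubule markers was taken in.

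Inf2 and Arhgap24 act on filament growth and its signals. Inf2 (ENSMUSG00000037679, chromosome 12, 112588784 to 112615557, plus strand), a formin that both nucleates and severs filaments, had 219.6, 293 and 246 CPM in knockout podocytes and 139, 119.8 and 123 CPM in control podocytes. The groups did not overlap, but the control values of libraries 2 and 3 rest on 6 and 7 UMIs. Inf2 therefore passed the low-count filter through the knockout libraries. Inf2 had a log2 change of 0.90 ± 0.28 (SE, n = 3 each; adjusted p = 0.156, edgeR). Arhgap24 (ENSMUSG00000057315, chromosome 5, 102481391 to 102897937, plus strand), a GTPase-activating protein that turns off Rac1, had 1012, 1465 and 1027 CPM in knockout podocytes. In control podocytes Arhgap24 had 1150.3, 998 and 1368 CPM, so the groups overlapped. Its log2 change was 0.01 ± 0.25 (SE, n = 3 each; adjusted p = 0.991, edgeR), and its sign turned in several alternatives.

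Nebl, Fhl2 and Clic5 link actin to other structures. Nebl (ENSMUSG00000053702, chromosome 2, 17343909 to 17731464, minus strand), nebulette, an actin-binding protein known from the Z-discs of heart muscle, had 2230.0, 1999.8 and 2118 CPM in knockout podocytes. In control podocytes Nebl had 2274, 2914 and 2947 CPM, so every knockout library was lower, as for 11.6% of all genes tested. The gap between the lowest control and the highest knockout library was small beside the spread. Nebl had a log2 change of -0.30 ± 0.20 (SE, n = 3 each; adjusted p = 0.524, edgeR), and it became 0.67 with the mixed podocyte cluster taken in. Clic5 (ENSMUSG00000023959, chromosome 17, 44188584 to 44280172, plus strand), a chloride intracellular channel protein found with ezrin and podocalyxin in foot processes, had 969, 965 and 1166 CPM in knockout podocytes and 946, 599 and 999.97 CPM in control podocytes. The groups overlapped, with a log2 change of 0.29 ± 0.27 (SE, n = 3 each; adjusted p = 0.661, edgeR). Fhl2 (ENSMUSG00000008136, chromosome 1, 43123074 to 43196984, minus strand), a LIM-only protein that binds integrin tails and transcription factors, had 10, 4 and 1 UMIs in knockout podocytes and 8, 1 and 6 UMIs in control podocytes, too few to be tested. Arhgap24, Fhl2 and Nebl also overlap annotated genes on the other strand, and Myh9 overlaps a small RNA gene on its own strand.

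Over the 9 tested genes the log2 changes ran from -0.34 to 1.48 with a median of 0.57, beside a median of 0.01 over all 1419 genes. At an unadjusted p under 0.05 stood 14.7% of all genes. By sign, 7 of the 9 were higher and 2 lower, beside 50.6% higher among all genes. In 3 genes every knockout library was above every control library (Tpm1, Myh9, Inf2) and in 1 every knockout library was below (Nebl), against 20.7% of all genes for both directions together. Of these, Inf2 passed the low-count filter through the knockout libraries.

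Other measures moved with these groups. The podocyte marker genes summed to 66058 CPM (58609 to 71390) in knockout podocytes and 84638 CPM (78122 to 92330) in control podocytes. Of 16 markers, 6 were higher and 10 lower in the knockout. The sums rest largely on Magi2, which stood at 48293 CPM with the podocyte nuclei of both groups pooled. The lower sum therefore does not show a loss shared by these markers. Proximal tubule markers in the same nuclei summed to 1651 CPM (948 to 2583) in the knockout and 3370 CPM (1860 to 4837) in the control, with 12 of 12 lower. Endothelial markers summed to 125 CPM (107 to 146) in the knockout and 388 CPM (239 to 539) in the control, with 11 of 12 lower. Mesangial and mural markers, whose cells express Tpm1 and Myh9 as well, were also lower, at 109 CPM (21.4 to 185) in knockout podocytes against 217 CPM (140 to 281) in control podocytes, with 10 of 14 lower. Fibroblast markers were at 110.4 CPM (85.6 to 142) in the knockout and 113 CPM (92.6 to 139.7) in the control, and Lum was at 0 in both groups. Injured tubule markers were higher, at 613 CPM (552 to 646) in knockout podocytes against 334 CPM (200 to 452) in control podocytes. Of 11 such markers, 4 were higher and 2 lower in the knockout. Havcr1, Vcam1 and Cd44 were at 0 in the control only, and Lcn2, Krt20, Krt18, Sox9 and Fgb were at 0 in both groups. Except as stated by these values, their part in the results on the 10 genes was not tested.

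Counting nuclei in place of UMIs gave values for Tpm1 that did not overlap either. Each podocyte nucleus was thinned to 1000 UMIs, which left out 137 of 324 knockout and 72 of 218 control nuclei as too shallow. The loss was uneven. Median depth was 921 UMIs over 59 podocyte nuclei of knockout library 2 and 801.5 UMIs over 56 of control library 2, so most of those were left out. Control library 3 had only 37 podocyte nuclei before thinning. A Tpm1 UMI was then found in 54.2%, 67.9% and 82.1% of knockout podocytes and in 27.5%, 30.8% and 25.0% of control podocytes. In proximal tubule nuclei, where Tpm1 is low, the thinned share was 4.56% in the knockout and 4.09% in the control (means of 3 libraries), so the podocyte shares were above that background in both groups. Without thinning, the share of podocytes with a Tpm1 UMI was 60.6% to 70.1% in the knockout and 25.0% to 42.4% in the control. For Myh9 the thinned mean share was 47.0% in knockout and 23.7% in control podocytes, and for Inf2 it was 23.3% in knockout and 10.5% in control podocytes. The Inf2 shares of single libraries overlapped, at 12.8% to 32.1% in the knockout and 7.69% to 15.6% in the control. Myo1e was found in 83.1% of knockout and 64.2% of control podocytes. The shares were 61.7% in knockout and 64.4% in control podocytes for Synpo, and 84.1% in knockout and 91.5% in control podocytes for Nebl. For Fhl2 the thinned shares were 0% to 7.14% in the knockout and 0% to 4.17% in the control, so no difference was detectable at this depth. These shares are a description with no test.

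Around the 10 genes, 8 lists of other actin genes, 170 genes in all, were examined in podocytes. Of these, 73 were tested, 2 rose (Actn1 and Rock2) and 0 fell, beside 1.55% higher and 0.705% lower among all genes. The median log2 change of the 73 was 0.03 beside 0.01 for all genes. Actn1, alpha-actinin-1, the close relative of Actn4, rose 5.52-fold, with 181, 379 and 503 CPM in knockout podocytes against 54.0, 20.0 and 105 CPM in control podocytes. Its log2 change was 2.47 ± 0.48 (SE, n = 3 each; adjusted p = 0.0334, edgeR). Actn1 had 111 UMIs in the knockout and only 21 UMIs in the control, so it passed the low-count filter through the knockout libraries. Rock2, a kinase that acts downstream of RhoA and raises myosin II activity, rose 2.5-fold, with 474, 759 and 1038 CPM in knockout podocytes against 278, 359 and 263 CPM in control podocytes. Its log2 change was 1.32 ± 0.28 (SE, n = 3 each; adjusted p = 0.0438, edgeR). The groups did not overlap in either gene. Of the 6 fits that left out 1 library, the one without knockout library 1 kept both calls (adjusted p = 0.00220 for Actn1 and 0.00554 for Rock2, edgeR). The adjusted p in the others was 0.185 and 0.199 without knockout library 2, 0.175 and 0.214 without knockout library 3, 0.146 and 0.143 without control library 1, 0.156 and 0.179 without control library 2, and 0.0987 and 0.189 without control library 3, for Actn1 and Rock2 in that order. Both calls were also lost with doublets kept (0.0518 and 0.0717) and with the mixed podocyte cluster taken in (0.0685 and 0.156). That of Rock2 alone was lost without the scaling factor (0.0760) and with the actin genes used in clustering (0.0532).

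By role, the list of actins and tropomyosins had 2 of 9 genes tested, with Cald1, caldesmon, an inhibitor of actomyosin, at 495, 689.6 and 802 CPM in knockout podocytes against 212, 59.9 and 316 CPM in control podocytes. Its log2 change was 1.67 (adjusted p = 0.0529, edgeR), and that of the filament cap Tmod3 was -0.14. The crosslinkers had 5 of 12 tested with 1 rising (Actn1). The myosins had 8 of 18 tested, 0 called and a median of -0.12, with Myo1d at 1098, 1052 and 1166 CPM in knockout podocytes against 1679, 1517 and 1719 CPM in control podocytes (log2 change -0.54, adjusted p = 0.289, edgeR). The nucleation and turnover list had 11 of 31 tested and 0 called, and the log2 changes were -0.39 for the formin Diaph2 and 0.44 for the WAVE complex subunit Nckap1. Adhesion and LIM proteins had 11 of 26 tested and 0 called, with Ablim3, an actin-binding LIM protein, at 1.65 (adjusted p = 0.0526, edgeR) and Tns1, tensin-1 of focal adhesions, at -1.0 (adjusted p = 0.266). In the nebulin family and membrane linkers, 6 of 18 were tested and 0 called, and the log2 changes were 0.25 for Epb41l5 and -0.34 for the membrane linker Ezr. The list around serum response factor and YAP holds coactivators as well as targets. It had 5 of 15 tested, 0 called and all 5 higher by sign, beside 50.6% of all genes. Ctgf, a YAP target, had 172, 517 and 492 CPM in knockout podocytes against 88.8, 0 and 70.2 CPM in control podocytes (log2 change 2.36, adjusted p = 0.0700, edgeR). Ablim3 and Ctgf had only 28 and 27 UMIs in the control and, like Actn1, passed the low-count filter through the knockout libraries.

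**Figure D2:**
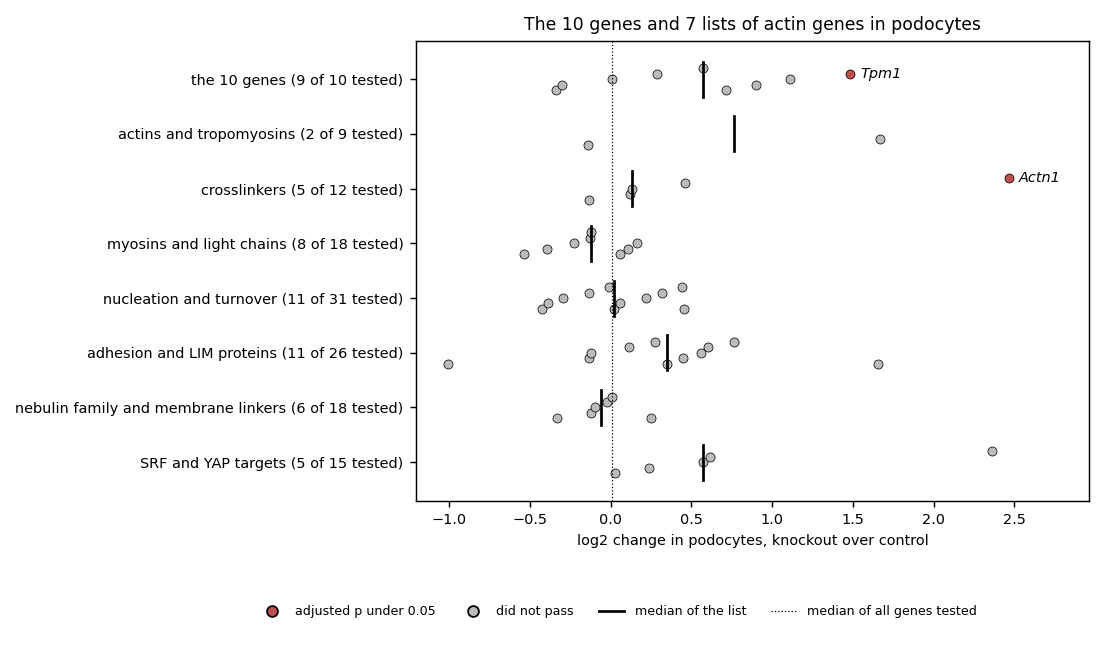
Log2 change in podocytes, knockout over control (x axis), of each tested gene of the 10 and of 7 of the 8 lists of actin genes, with a black bar at the median of each list and a dotted line at the median of all genes tested (0.01). Red points passed the test over all genes: Tpm1 at 1.48 and Actn1 at 2.47; all other points did not pass.

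In mesangial and mural nuclei, no gene was called: 0 of the 6 tested of the 10 genes and 0 of 1016 genes (0%) passed in edgeR, 113 (11.1%) had an unadjusted p under 0.05 and DESeq2 called 0. Tpm1 was again higher in every knockout library, with 557, 609.9 and 436 CPM in knockout nuclei against 222, 189 and 165 CPM in control nuclei. The groups did not overlap, as for 16.7% of all genes tested (7.38% with the knockout above and 9.35% with it below). The log2 change of Tpm1 was 1.40 ± 0.29 (SE, n = 3 each; adjusted p = 0.152, edgeR), and it rested on 16 and 17 UMIs in knockout libraries 2 and 3 and on 7 and 10 UMIs in control libraries 2 and 3. Actn4 had 416, 343 and 514 CPM in knockout nuclei against 279, 297 and 215 CPM in control nuclei, with a log2 change of 0.68 ± 0.30 (adjusted p = 0.413, edgeR). Myh9 had 424, 457 and 436 CPM in knockout nuclei against 215, 297 and 379.5 CPM in control nuclei, with a log2 change of 0.60 ± 0.28 (adjusted p = 0.449, edgeR). The groups did not overlap for these 3 genes.

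The other tested genes overlapped between the groups in mesangial and mural nuclei. Myo1e had 366, 267 and 591 CPM in knockout nuclei against 355, 297 and 363 CPM in control nuclei. Arhgap24 had 499, 839 and 591 CPM in knockout nuclei against 405, 513 and 578 CPM in control nuclei. Fhl2 had 249, 191 and 334 CPM in knockout nuclei against 133, 81.0 and 429 CPM in control nuclei, with control library 3 the highest of all. The log2 changes of Myo1e, Arhgap24 and Fhl2 were 0.24, 0.31 and 0.30, with adjusted p-values of 0.868, 0.745 and 0.905 in edgeR. The median over the 6 tested genes was 0.46 beside -0.04 for all 1016 genes, of which 47.7% were higher by sign. Synpo, Inf2, Nebl and Clic5 had too few UMIs to be tested there, at group means of 89.9, 24.9, 47.6 and 60.8 CPM in knockout nuclei against 79.8, 42.4, 56.7 and 86.1 CPM in control nuclei. Podocyte markers in these nuclei summed to 2951 CPM (2850.3 to 3107) in the knockout and 2901 CPM (2754 to 3158) in the control, with Nphs1 at 0 in the knockout. Proximal tubule markers summed to 6612 CPM (6289 to 7163) in the knockout and 9420.4 CPM (8233 to 10182) in the control, with 11 of 12 lower, and their part in the results was not tested.

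**Figure D3:**
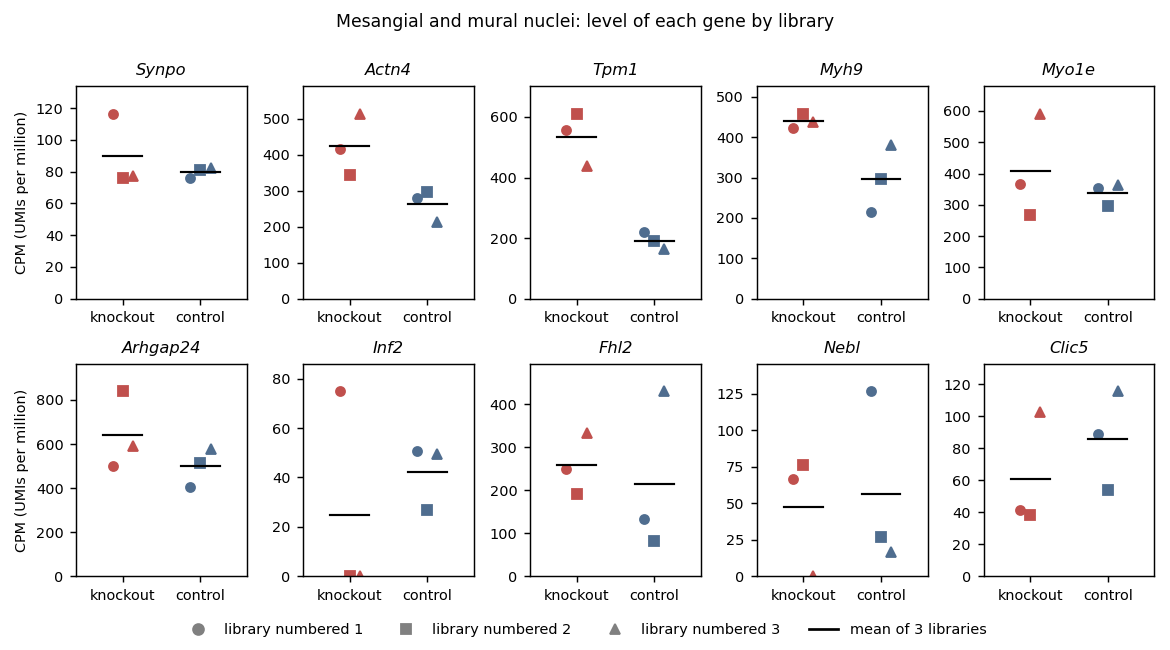
Level of each of the 10 genes in mesangial and mural nuclei (y axis, CPM, starting at 0), with 1 symbol per library, knockout left of control, and a bar at the mean of 3 libraries. The knockout symbols lie above all control symbols for Tpm1 (436 to 609.9 against 165 to 222 CPM), Actn4 and Myh9, and the groups overlap for the other 7 genes.

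Of the 170 other actin genes, 53 were tested in mesangial and mural nuclei and 0 were called by edgeR. An unadjusted p under 0.05 was found for 8 of the 53, beside 11.1% of all genes tested there. In 8 of the 53 every knockout library was higher, beside 7.38% of all genes, and in 2 every one was lower, beside 9.35%. The median log2 change was 0.17 beside -0.04 for all genes. Synpo2, a muscle relative of synaptopodin, had 440.4, 343 and 539 CPM in knockout nuclei against 158, 162 and 116 CPM in control nuclei (log2 change 1.57, adjusted p = 0.152, edgeR). Myh11, the smooth muscle myosin heavy chain, had 922, 762 and 873 CPM in knockout nuclei against 437, 486 and 545 CPM in control nuclei (log2 change 0.82, adjusted p = 0.240). Arhgap18, a GTPase-activating protein of RhoA, had 149.6, 191 and 257 CPM in knockout nuclei against 393, 459 and 330.0 CPM in control nuclei (log2 change -1.06, adjusted p = 0.240). Of other genes named by the same rule, log2 changes were 0.94 for Palld, 0.97 for Enah, 0.95 for Pdlim5, 0.76 for Myo10, 0.50 for Ssh2, 0.34 for Clic4, 0.29 for Cald1, 0.20 for Wwtr1 and -0.55 for Cobll1, and none of these passed.

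Whether the change in podocytes differed from that elsewhere was tested as an interaction with the library as a block. Against all other nuclei, 36 of 13952 genes (0.258%) differed in edgeR and 0 of the 10 genes did, although 3 (Tpm1, Myh9 and Clic5) had an unadjusted p under 0.05, as did 676 of all genes (4.85%). The 36 became 77 without knockout library 1, 18 without knockout library 2, 19 without control library 1 and 21 without control library 3. The difference for Tpm1 was 1.13 ± 0.36 on the log2 scale (SE; adjusted p = 0.284, edgeR), and Tpm1 in all other nuclei together had a log2 change of 0.40 ± 0.15. The make-up of that pool differed by group. It held 1726 injured tubule, 1050 cycling and 13648 proximal tubule nuclei in the knockout, against 31, 47 and 16631 in the control. In proximal tubule nuclei alone the log2 change of Tpm1 was 0.10 ± 0.21 (adjusted p = 0.955, edgeR). The part of this make-up in the interactions was not tested. Myh9 differed by 0.80 ± 0.37 (adjusted p = 0.942, edgeR) and Clic5 by 0.68 ± 0.35 (adjusted p = 1, edgeR), and the other 7 genes by -0.40 to 0.50. The adjusted p of Tpm1 was 0.0265 without knockout library 1 and 7.85e-05 with the mixed podocyte cluster taken in, where that of Clic5 was 0.00409.

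Against mesangial and mural nuclei, 0 of 1741 genes (0%) differed in edgeR, with 100 (5.74%) at an unadjusted p under 0.05. Without knockout library 1 or control library 3 the count was 4. The change of Tpm1 in podocytes exceeded that in mesangial and mural nuclei by 0.09 ± 0.43 on the log2 scale (SE; adjusted p = 0.995, edgeR), a standard error too wide to show that the changes were alike. For Myh9 the difference was 0.54 ± 0.42 and for Clic5 0.98 ± 0.57, and for the other 7 genes it was -0.61 to 1.05. So the data did not set the change of any of the 10 genes in podocytes apart from that in mesangial and mural nuclei.

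**Figure D4:**
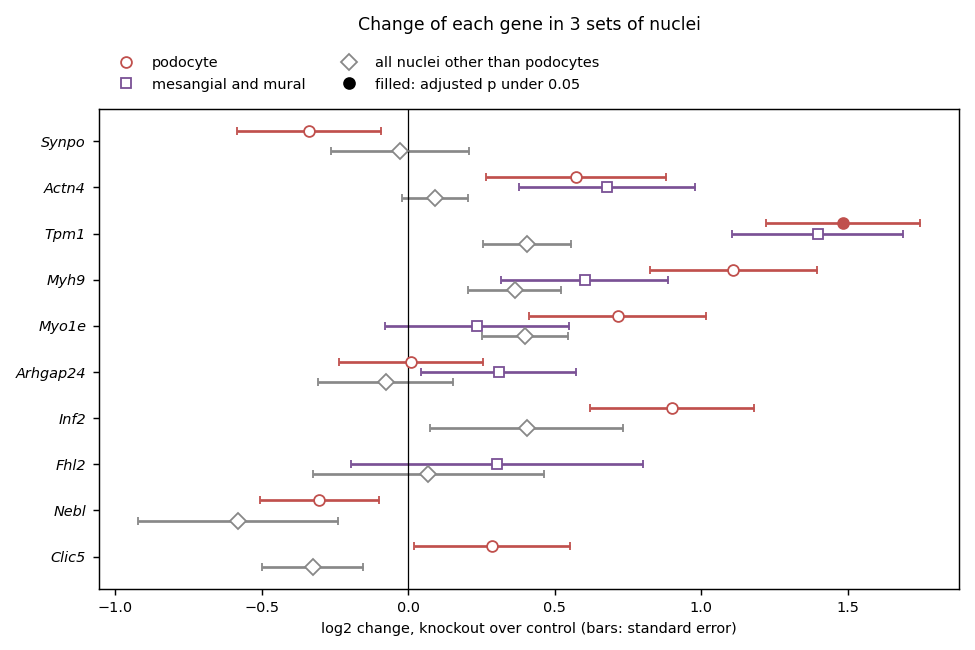
Log2 change of each gene, knockout over control (x axis), with its standard error as a bar, in podocytes (circles), in mesangial and mural nuclei (squares) and in all nuclei other than podocytes (diamonds), a set that holds the mesangial and mural nuclei too. Tpm1 in podocytes is the filled symbol, at 1.48, and in mesangial and mural nuclei Tpm1 lies at 1.40; genes too low for a test have no symbol.

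In the 10 other classes with at least 10 nuclei in each library, 57 pairs of a gene and a class could be tested. None was called by edgeR (0 of 57, beside 5 of 50710 or 0.00986% over all genes), 6 had an unadjusted p under 0.05, beside 6.33% of all gene and class pairs, and DESeq2 called 1. In 9 pairs every knockout library was above every control library, beside 6.75% of all gene and class pairs, and in 1 pair every one was below, beside 5.24%. Of these 9 pairs, 4 were of Myo1e, whose log2 change was above 0 in all 10 classes, from 0.14 to 1.07. In connecting tubule and principal cells Myo1e had 293, 401 and 526 CPM in the knockout against 189.5, 182 and 195 CPM in the control (log2 change 1.07, adjusted p = 0.346 in edgeR and 0.0441 in DESeq2). The replicate numbers were taken to pair the libraries in that class too, and with the replicate block Myo1e had a log2 change of 1.02 and an adjusted p of 0.0135 (edgeR). Without both libraries numbered 1 its adjusted p was 0.0171. Myh9 gave 3 of the 9 pairs. In parietal epithelial cells, which line the outer wall of the glomerular capsule, it had 594, 963 and 950.5 CPM in the knockout against 229, 171 and 244 CPM in the control. Its log2 change there was 1.90 ± 0.41 (adjusted p = 0.0992, edgeR), on 140 UMIs in the knockout and 20 UMIs in the control. Without knockout library 1 the adjusted p of Myh9 was 0.0154. Tpm1 was too low for a test in parietal epithelial cells, at 183, 398 and 992 CPM in the knockout against 88.3, 0 and 146 CPM in the control. Tpm1 was called there when tested without knockout library 1 (log2 change 2.96, adjusted p = 0.0236, edgeR) and without the low-count filter (2.65 and 0.0160). Over all genes of the parietal class, 89 of 730 were called without knockout library 1 and 49 of 14068 without the filter. The tubular class of Myo1e and the values of Tpm1 here were picked after they were seen.

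Over all 12 classes, 5 of the genes were highest in podocytes with no overlap with the next class in any of the 6 libraries: Synpo, Myo1e, Inf2, Nebl and Clic5. Synpo averaged 1196 ± 254 CPM in podocytes (SD over 6 libraries), 8.21-fold the 146 ± 45.8 CPM of endothelial nuclei, and was lowest in the proximal tubule at 3.02 CPM. Nebl averaged 2414 ± 412 CPM in podocytes, 8.74-fold the 276 ± 188 CPM of endothelial nuclei, and was lowest in immune cells at 5.62 CPM. Inf2 was 4.12-fold higher in podocytes than in endothelial nuclei (190.0 ± 73.1 against 46.2 ± 15.6 CPM) and lowest in the distal convoluted tubule at 0.993 CPM. Clic5 was 4.44-fold and Myo1e 3.87-fold higher in podocytes than in parietal epithelial cells, at 941 ± 186 against 212 ± 82.0 CPM and 1957 ± 717 against 505 ± 229.9 CPM. The lowest class was the connecting tubule and principal cells for Clic5 (13.1 CPM) and the proximal tubule for Myo1e (136 CPM).

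Of the other 5 genes, Fhl2 was set apart in fibroblasts, and the rest were spread over more classes. Tpm1 averaged 765 ± 448 CPM in podocytes and 383 ± 148 CPM in fibroblasts over the 6 libraries, with overlap. The class next to podocytes for Tpm1 was mesangial and mural nuclei in the knockout (534 ± 88.8 CPM) and fibroblasts in the control (330.0 ± 199 CPM). Actn4 averaged 509 ± 210.1 CPM in podocytes and 430.5 ± 164 CPM in fibroblasts, with overlap. Tpm1 was lowest in the distal convoluted tubule (26.7 CPM) and Actn4 in intercalated cells (138 CPM). Myh9 averaged 637 ± 217 CPM in fibroblasts, 525 ± 366 CPM in parietal epithelial cells and 519 ± 235 CPM in podocytes over the 6 libraries, and was lowest in the proximal tubule at 128 CPM. The order at the top differed by group. In the knockout Myh9 had 836 ± 209.7 CPM in parietal epithelial cells, 721 ± 78.0 CPM in podocytes and 672 ± 143 CPM in fibroblasts, whereas in the control it had 215 ± 38.6 CPM in parietal epithelial cells, 318 ± 103 CPM in podocytes and 603 ± 307 CPM in fibroblasts. Arhgap24 was highest in fibroblasts at 2067 ± 1044 CPM and second in podocytes at 1170.1 ± 201 CPM, with overlap, and lowest in endothelial nuclei at 304 CPM. Fhl2 averaged 1691 ± 712 CPM in fibroblasts, 7.16-fold the 236 ± 129 CPM of mesangial and mural nuclei, while podocytes had 46.5 ± 35.2 CPM and the distal convoluted tubule, the lowest class, 5.41 CPM. Within fibroblasts Fhl2 had 1375, 2139 and 1636 CPM in the knockout and 704, 1494 and 2795 CPM in the control, so the groups overlapped.

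**Figure D5:**
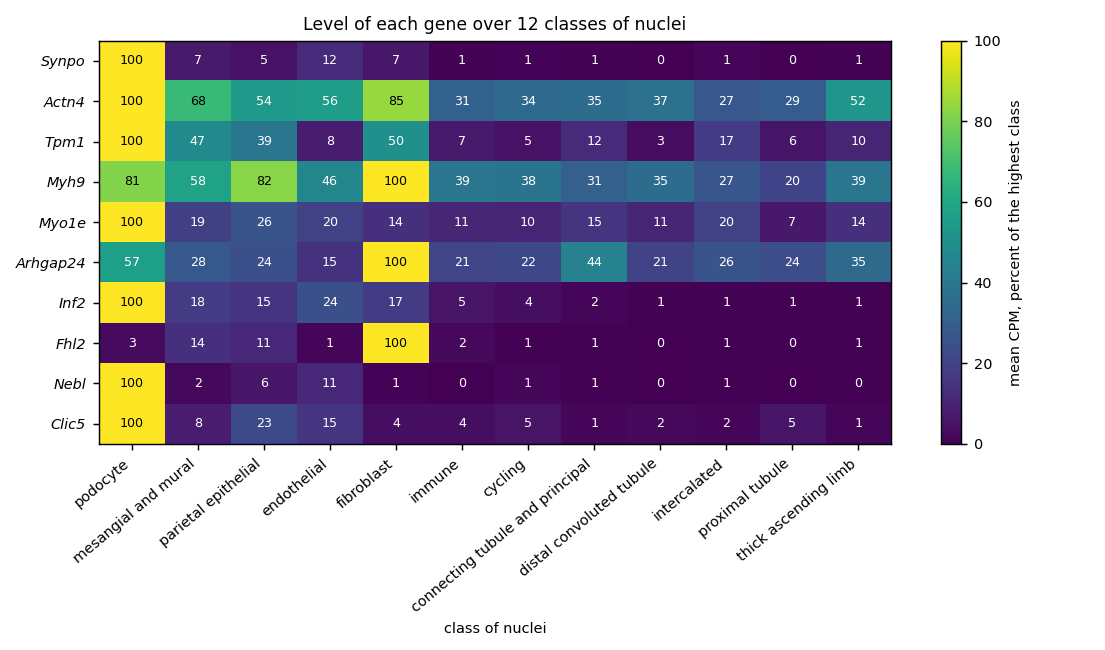
Mean CPM over 6 libraries of each gene (rows) in each of 12 classes of nuclei (columns), written and coloured as percent of the class where the gene is highest. Synpo, Myo1e, Inf2, Nebl and Clic5 have their maximum in podocytes and low values elsewhere, while Fhl2 has its maximum in fibroblasts.

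The likeness of patterns was measured by Pearson's r of mean log2(CPM + 10) in the control libraries over 12 classes, among 13809 genes besides the one compared. The points share libraries and differ in depth, so r is a description. Among the 10, Synpo was most like Inf2 (r = 0.93), Nebl (0.92) and Myo1e (0.91), and Arhgap24 and Clic5 were least alike (0.04). Nebl was most like Sema3g (0.98), Nes and Coro2b, Synpo like Arhgef12 (0.95), Tmod3 and Marveld1, Inf2 like Msrb3 (0.94), Tmod3 and Tm4sf1, and Clic5 like Gab1 (0.95), Unc5c and Npr3. Myo1e was most like the predicted gene Gm19299 (0.94), Arhgef12 and Srgap1, and Tpm1 like Frmd6 (0.92), Phf21a and Robo2. Fhl2 was most like Ctgf (0.95), Adamts12 and Kcnt2, Actn4 like Fndc3b (0.91), Robo1 and Eml1, Arhgap24 like Gm7694 (0.89), Kat6b and Rcn2, and Myh9 like Dennd2a (0.86), Crtc3 and Pomk.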

How the data were processed

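Single-nucleus 10x libraries of kidney cortex were analysed in 3 knockout and 3 control libraries, grouped by the labels. The deposited matrices hold raw, unscaled UMI counts for each gene in each barcode, which the authors made with Cell Ranger (version 3.1.0 per the file headers), and mm10 and Seurat are named in the submitters' processing notes. The sources used here do not state whether intronic reads were counted, the annotation release or the deleted exons of Klf4. Cell classes were rebuilt from the counts, and any difference from the study's cell types can stem from that.

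The filters kept barcodes with 300 genes or more and no more than 5% mitochondrial UMIs. Scrublet's automatic threshold called 0 to 9 barcodes per library, so the highest scores were removed at 0.8% per 1000 barcodes (105 to 3822 per library). Nuclei were clustered (Leiden, scanpy 1.11.5, igraph 0.11.9) without the 10 genes and the actin lists, and named by fixed markers with thresholds set after the clusters were seen. A cluster of podocyte with proximal tubule markers was set aside. UMIs were summed per library and class and tested with edgeR 4.0.16 (quasi-likelihood, limma 3.58.1, R 4.3.3; TMM scaling, filterByExpr, two-sided, Benjamini-Hochberg over all genes tested in a class, threshold 0.05), with DESeq2 1.42.0 as an alternative. The low-count filter keeps a gene with enough UMIs in as many libraries as a group holds. A gene that is high in 1 group can therefore pass through that group alone. Interactions were tested with the library as a block. The scripts were tested on simulated data. CPM intervals and floors (3 UMIs) cover counting error only.

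The 10 genes and the gene lists were chosen with earlier results of these data known. The 10 genes are named whatever their values. In other classes a gene is named where it is called or where its mean is highest, second or lowest. From each actin list the genes called are named, otherwise the 2 with the smallest p. The values of 1 list and of some genes that this rule names are not reported here. For likeness the 3 genes of highest r are named, among genes with at least 50 UMIs in their highest class. Replicate numbers come from the titles. In podocytes the deviations of same-numbered libraries correlated at 0.52, 0.10 and 0.23, each above 0.1, so the numbers were taken to pair the libraries there. The same held in connecting tubule and principal cells, distal convoluted tubule, endothelial, proximal tubule and thick ascending limb nuclei. The same-numbered library was the best match for 2 of 3 in podocytes. That number was 1 in proximal tubule nuclei and 3 in distal convoluted tubule nuclei. No label names a pair, the rule was applied to these same data, and the lowest podocyte correlation lay only just above 0.1. Results with the replicate block rest on this assumption.

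Alternatives were DESeq2, no TMM factor, no low-count filter, the replicate block, each library left out, both libraries numbered 1 left out, doublets kept, the actin genes used in clustering, and podocytes with at least 3 marker UMIs. Those with the mixed podocyte cluster taken in and with shared barcodes left out were chosen after seeing the data. Gene positions are from GENCODE vM21 on mm10, and promoter windows are from RefSeq, build GRCm38.p6. Groups of 3 libraries were not screened for single outlying values.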

Additional observations from a re-analysis of the deposited data

Results flagged for a closer look

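Myh9 had every knockout library below every control library in cycling nuclei and every knockout library above every control library in 5 other classes. It did not pass the test in any of these classes (edgeR; adjusted p = 0.0847 to 0.999), and the differences between classes were not tested. In cycling nuclei Myh9 had 177, 201 and 233 CPM in the knockout against 302, 275 and 275 CPM in the control, a log2 change of -0.37 ± 0.29 (SE, n = 3 each; adjusted p = 0.820, edgeR). The control side there was 22, 13 and 12 nuclei, against 412, 323 and 315 in the knockout. The log2 change of Myh9 in other classes exceeded that in cycling nuclei by 1.48 in podocytes, 2.27 in parietal epithelial cells, 0.98 in mesangial and mural nuclei, 0.97 in endothelial nuclei and 0.70 in the distal convoluted tubule.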

How the results depend on the processing

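Genes called in podocytes (32) became 104 without the low-count filter, 103 with the replicate block, 0 to 95 with 1 library left out, 115 without both libraries numbered 1, 18 with doublets kept and 10 with the mixed podocyte cluster taken in. Of the 10 genes, 1 was called there, against 2 with DESeq2, 2 without the filter, 3 with the replicate block, 0 to 1 with 1 library left out, 4 without both libraries numbered 1 (Tpm1, Myh9, Myo1e and Actn4) and 0 with the mixed cluster. In mesangial and mural nuclei (0 genes) the filter's removal gave 4 and the replicate block 27, 1 of them among the 10 (Tpm1), although the numbers did not pair the libraries there by the rule used (correlations 0.41, 0.07 and 0.12). In the 10 other classes the pairs called (0) became 1 with DESeq2, 2 without the filter, 1 with the replicate block (Myo1e in connecting tubule and principal cells), 0 to 2 with 1 library left out, 2 without both libraries numbered 1 and 1 with the actin genes used in clustering.

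Genes whose change differed between podocytes and all other nuclei (36) became 58 without TMM factors, 18 to 77 with 1 library left out, 21 without both libraries numbered 1 and 169 with the mixed cluster. Between podocytes and mesangial and mural nuclei (0) the counts were 0 to 4 with 1 library left out, 1 without both libraries numbered 1, 2 with the actin genes in clustering, 7 with the mixed cluster and 2 without shared barcodes. The cause of these shifts was not tested.

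With the mixed cluster taken in, the log2 changes of Synpo (0.57), Nebl (0.67), Tmod3 (0.71), Myo1d (0.37) and Diaph2 (0.22) in podocytes turned positive. Arhgap24 in podocytes turned to -0.0074 with DESeq2, -0.071 without TMM factors, -0.012 with the replicate block and -0.042 with doublets kept, and was -0.14 to 0.14 with 1 library left out. In mesangial and mural nuclei Fhl2 was -0.037 to 0.42 with 1 library left out and -0.045 without both libraries numbered 1, and Wwtr1 was -0.010 to 0.38 and, with doublets kept, -0.090. The difference of Tpm1 between podocytes and mesangial and mural nuclei was -0.075 without TMM factors, -0.15 to 0.49 with 1 library left out, -0.012 with doublets kept and -0.030 without shared barcodes. Podocytes with at least 3 marker UMIs were all podocytes, so that setting changed nothing. Of the other values of single genes, 37 passed the threshold newly and 21 no longer did. Another 638 were unchanged, a count that includes mean shares of nuclei that stayed within their SD. With nuclei thinned to 500 UMIs, 17 mean shares of podocyte nuclei moved by their SD or more. Tpm1 was then found in 31.9% to 41.6% of knockout and 14.3% to 17.6% of control podocytes. Depth is a limit: control podocytes 2 and 3 held 50101 and 57002 UMIs.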
